A study of Homo sapiens with 36 samples.

Results

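The HOX genes encode homeodomain transcription factors that lie in 4 clusters, HOXA on chromosome 7, HOXB on chromosome 17, HOXC on chromosome 12 and HOXD on chromosome 2. The members described here are all loci whose symbol is HOX, a cluster letter A to D and a paralog number, and 39 of the 23146 loci in the deposited tables met that rule. They comprise 11 HOXA, 10 HOXB, 9 HOXC and 9 HOXD genes. RNA came from MRC-5, a long-established human cell line of fibroblasts grown from fetal lung, in 36 libraries of 4 conditions at 3 times with 3 libraries per group. FD cells carried a GFP lentivirus and were exposed to 10 µM forskolin, which activates adenylyl cyclase, and 1 µM dorsomorphin, which inhibits BMP type I receptors and AMPK. N cells carried a lentivirus for HA-tagged NEUROG2, a proneural basic helix-loop-helix factor. NFD cells carried the NEUROG2 virus and were exposed to both molecules at the same doses. GFP cells carried the GFP virus and received neither molecule.

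All cells were plated and transduced at the same times, and RNA was taken 0.5, 1 and 2 days after the molecules were added to the FD and NFD cultures (days post treatment, DPT). Lentiviral transduction, the change of medium and plating density were thus common to the groups by the protocols. One label, however, puts the GFP cells in serum medium while the protocol puts them in neuron induction medium, so an effect of the medium and an effect of the virus or molecules cannot be told apart in any comparison with GFP if that label is right. The labels do not say whether the 3 libraries of a group were separate cultures, so p-values measure only the spread between these libraries, which may be technical. The files give 1 value per group of 3 libraries in FPKM (fragments scaled to transcript length and to the number of mapped fragments), with no value per library. No error per group can therefore be given for a level, and depth is unknown. Sets of 3 values are given in the order 0.5, 1 and 2 DPT.

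During development, HOX genes are switched on in the order in which they lie along the chromosome, paralogs with low numbers at the 3′ end first and toward the head, and paralogs with high numbers at the 5′ end later and toward the tail. Cultured fibroblasts keep much of the HOX pattern of the body site they came from, and Polycomb complexes hold the silent part of each cluster under histone H3 lysine 27 methylation. HOX proteins gain DNA specificity by pairing with PBX proteins and with MEIS or PKNOX proteins, homeodomain factors of the TALE class. In the hindbrain and spinal cord the same genes set the identity of motor neurons along the body axis. In mice, Hoxa5 in lung mesenchyme is needed for normal lung development.

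Promoters from RefSeq (build GRCh38.p14, 250 bases before the transcript start and 50 from it) were found for 20 of the 39 members. Those of the 4 members called in NFD cells at 2 DPT that have an entry are shown. Capitals mark every match, on either strand, to CAGATG (an E-box of the kind bound by NEUROG2), CAGCTG (another E-box), TGACGTCA or its part TGACG (cyclic AMP response element) and TGATNNAT (a HOX-PBX site). HOXA11 and HOXC4 were higher in NFD cells at 2 DPT, and HOXA2 and HOXA3 were lower. HOXA11 and HOXC4 were tested only in NFD cells, where their own levels were highest, so their calls could only be higher. No contrast between higher and lower genes is drawn from these windows. The windows lie at chr7:27185183-27185482 (minus strand), chr12:54016638-54016937 (plus strand, the same window as HOXC5), chr7:27102634-27102933 (minus strand) and chr7:27152534-27152833 (minus strand). The HOXA3 window lies between the windows of HOXA6 (chr7:27147725-27148024) and HOXA7 (chr7:27156626-27156925). The HOXA3 locus measured here (GRCh37 chromosome 7, bases 27145809 to 27166639) ends before the locus shared by HOXA5, HOXA6 and HOXA7 (bases 27179983 to 27196296). By this gene order the window lies outside the measured HOXA3 locus. It is therefore not the promoter of the HOXA3 RNA measured here. Window positions are in GRCh38, while positions of genes and loci are in GRCh37.
HOXA11 promoter: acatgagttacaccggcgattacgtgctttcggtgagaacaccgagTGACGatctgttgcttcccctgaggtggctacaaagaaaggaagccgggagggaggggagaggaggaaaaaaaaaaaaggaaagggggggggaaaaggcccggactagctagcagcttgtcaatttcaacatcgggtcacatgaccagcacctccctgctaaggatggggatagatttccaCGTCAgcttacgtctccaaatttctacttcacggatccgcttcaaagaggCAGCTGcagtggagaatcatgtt
HOXC4 promoter: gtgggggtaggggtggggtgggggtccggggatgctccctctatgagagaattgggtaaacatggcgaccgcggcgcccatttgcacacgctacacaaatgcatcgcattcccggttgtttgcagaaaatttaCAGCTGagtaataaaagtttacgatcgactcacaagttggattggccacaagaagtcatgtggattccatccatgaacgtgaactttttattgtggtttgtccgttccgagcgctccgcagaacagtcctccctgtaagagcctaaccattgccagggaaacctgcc
HOXA2 promoter: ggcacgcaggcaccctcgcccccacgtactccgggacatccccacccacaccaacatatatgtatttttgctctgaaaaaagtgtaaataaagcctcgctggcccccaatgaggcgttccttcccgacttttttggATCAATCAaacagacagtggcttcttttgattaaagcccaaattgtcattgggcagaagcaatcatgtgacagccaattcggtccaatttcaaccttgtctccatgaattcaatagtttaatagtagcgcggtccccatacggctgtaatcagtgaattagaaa
HOXA3 promoter: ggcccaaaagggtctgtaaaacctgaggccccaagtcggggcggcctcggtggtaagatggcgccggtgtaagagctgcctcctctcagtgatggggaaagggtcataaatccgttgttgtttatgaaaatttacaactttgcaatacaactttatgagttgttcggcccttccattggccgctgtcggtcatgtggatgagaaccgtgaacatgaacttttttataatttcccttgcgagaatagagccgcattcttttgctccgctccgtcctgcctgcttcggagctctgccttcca

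The HOXA11 window held CAGCTG and TGACG, the HOXC4 window held CAGCTG, and the HOXA2 window held TGATNNAT. The window of the HOXA3 entry, outside the measured HOXA3 locus, held none of these letters. CAGATG was in 2 of the 20 HOX windows and in 14.7% of all 35116 promoters, and CAGCTG was in 5 of the 20 and in 17.9% of all. TGACG was in 7 of the 20 and in 24.6% of all, and the full TGACGTCA, which contains TGACG on both strands, was in 0 of the 20 and in 1.85% of all. TGATNNAT was in 3 of the 20 and in 7.40% of all. These matches describe letters in a 300-base window and are not evidence of binding.

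The label of fetal lung fibroblast was set against marker genes. All 12 fibroblast markers were present in GFP cells at 2 DPT with a summed level of 11377 FPKM. Of 8 epithelium markers, SFTPC and SCGB1A1, which mark lung epithelium, were both listed at 0 in those cells. The other 6 were above 0, led by the keratins KRT18 at 19.3, KRT8 at 11.8 and KRT19 at 1.33 FPKM. The 8 summed to 12.8 FPKM in FD cells, 14.4 in N cells, 6.20 in NFD cells and 32.9 in GFP cells at 2 DPT, and the part of this difference in the HOX values was not tested. FOXF1, TBX5 and TCF21, which mark lung mesenchyme in the mouse embryo and were chosen after their values were seen, stood at 122, 18.9 and 82.7 FPKM in GFP cells at 2 DPT. TBX4, another gene of lung mesenchyme in the mouse embryo and also chosen after its values were seen, stood at 0.220 FPKM there. The summed fibroblast markers were lower in NFD than in GFP cells at each time, with 4843, 2982 and 1573 FPKM in NFD cells against 9153, 10291 and 11377 FPKM in GFP cells. All 12 were lower in NFD cells at 2 DPT in the authors' deposited table, beside 32.0% of all tested loci. In bulk RNA, fewer cells of a type and less RNA per cell cannot be told apart.

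GFP cells expressed the 3′ and middle parts of the HOXA and HOXB clusters and almost nothing of HOXC, HOXD or the 5′ ends. FPKM is scaled to transcript length, so levels may be set side by side between genes. At 2 DPT the highest were HOXA5 at 28.3 FPKM, HOXB6 at 26.4, HOXB2 at 19.3, HOXB3 at 18.9, HOXB7 at 12.9, HOXB4 at 10.1 and HOXB5 at 7.30 FPKM. No spread per group is available, so neighbours in that order cannot be separated. HOXA5 was higher than 87.2% of all loci in the table. HOXB1, at the 3′ end of HOXB and a marker of one hindbrain segment in vertebrate embryos, was listed at 0 in every group except N cells at 1 DPT, where it had 0.0177 FPKM.

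**Figure D1:**
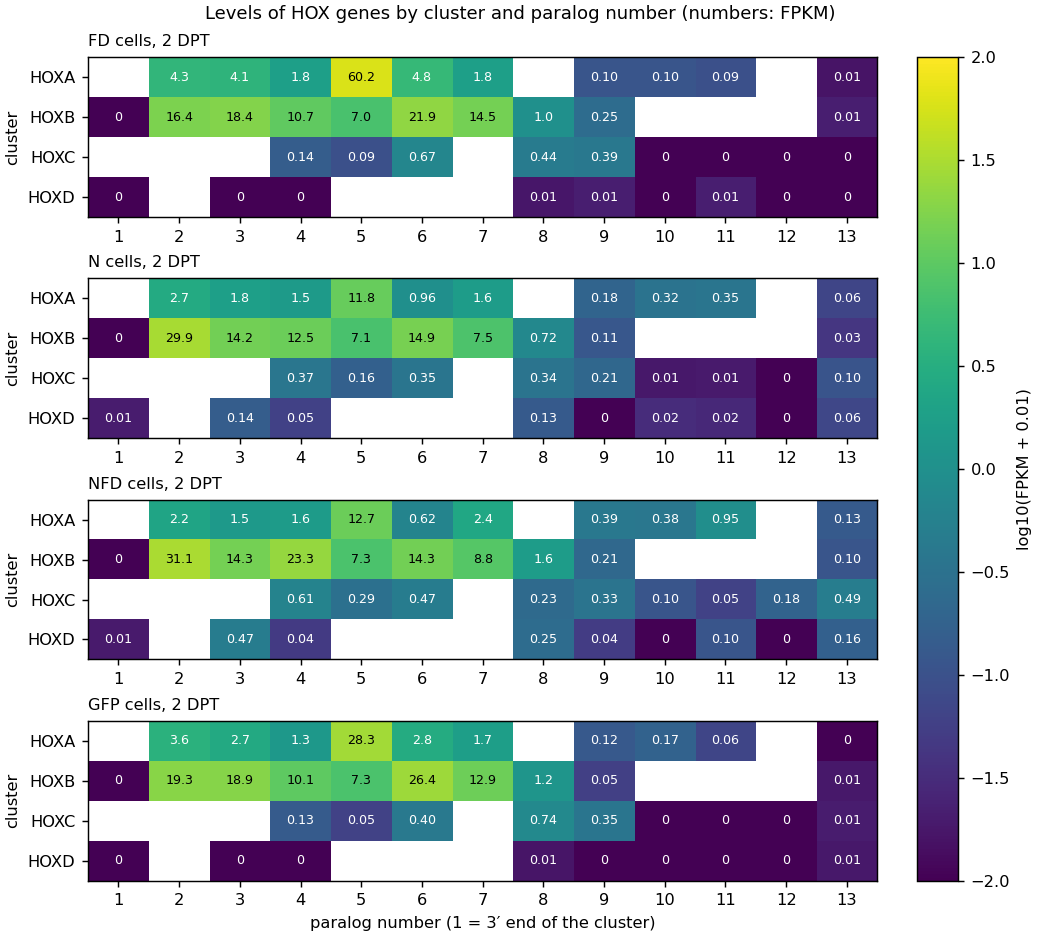
Each square is 1 HOX gene, placed by cluster (rows) and paralog number (columns), coloured by log10(FPKM + 0.01) and marked with the group FPKM at 2 DPT in FD, N, NFD and GFP cells; white squares have no value shown. HOXA5 stood at 60.2 FPKM in FD cells and 28.3 in GFP cells, and HOXB4 at 23.3 in NFD cells and 10.1 in GFP cells.

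Of the 39 members, those that reached 1 FPKM in any of the 12 groups included HOXA2 to HOXA7 and HOXB2 to HOXB8, and none was in HOXC or HOXD. Members that stayed under 1 FPKM ranged between 0 and 0.953 FPKM, the highest being HOXA11. Some members share 1 locus in the tables, so the split of reads among them is uncertain: these are HOXA5 with HOXA6 and HOXA7, HOXA9 with HOXA10, HOXB5 with HOXB6, and HOXC4 with HOXC5 and HOXC6.

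Summed over its genes, the HOXA cluster had 34.8, 64.4 and 77.7 FPKM in FD cells, 23.5, 23.4 and 21.9 FPKM in N cells, 12.8, 18.8 and 23.9 FPKM in NFD cells and 32.2, 35.3 and 41.7 FPKM in GFP cells. FD cells were above GFP cells at all 3 times, and N and NFD cells were below them. HOXA5 alone made up 60.2 of the 77.7 FPKM in FD cells at 2 DPT. HOXB summed to 80.3, 95.2 and 90.2 FPKM in FD cells, 83.1, 85.6 and 86.9 FPKM in N cells, 60.1, 64.6 and 101 FPKM in NFD cells and 94.9, 90.8 and 96.3 FPKM in GFP cells. NFD cells were thus the lowest in HOXB at 0.5 and 1 DPT and the highest at 2 DPT. These sums carry no test.

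The authors' test, by Cuffdiff, was available for 18 members in at least 1 of the 9 tables and for 15 members in all of them, and 21 members were never tested. A gene is called higher or lower here when its deposited q-value did not exceed 0.05. The 3 conditions were each compared with the same GFP group of the same time, so the comparisons share their control. By the authors' deposited tables, 15 members were called in at least 1 table.

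In FD cells, 16 members were tested at each time. Of these, 1, 4 and 3 were higher and 4, 1 and 2 were lower in the authors' deposited tables. Among all tested loci, 17.8%, 16.0% and 16.9% were higher and 18.8%, 22.3% and 21.6% lower. The share of members called, 31.25% at each time, was near that of all loci. Median log2 fold changes of the members were -0.27, 0.05 and 0.06, beside 0.00, -0.04 and -0.01 over all tested loci.

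In N cells, 2, 2 and 2 of the 16, 16 and 15 tested members were higher and 5, 4 and 8 were lower in the authors' deposited tables. The shares over all tested loci were 26.2%, 25.4% and 27.1% higher and 24.3%, 29.3% and 30.0% lower. HOXB2 and HOXB4 were the higher members at every time. At 2 DPT, 53.3% of tested members were lower. Medians were -0.26, -0.18 and -0.41, beside 0.03, -0.03 and -0.01 over all tested loci.

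In NFD cells, 2, 3 and 4 of 17 tested members were higher and 8, 8 and 7 were lower in the authors' deposited tables. Over all tested loci, 32.1%, 32.6% and 34.1% were higher and 31.3%, 33.2% and 32.0% lower. Medians of the members were -0.54, -0.44 and 0.00, beside 0.02, 0.00 and 0.04 over all tested loci. HOXA11 and HOXC4 were tested only in NFD tables, where their own levels were highest, so those calls could only be higher. HOXA7, HOXB5 and HOXC6 were tested without passing in any table.

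**Figure D2:**
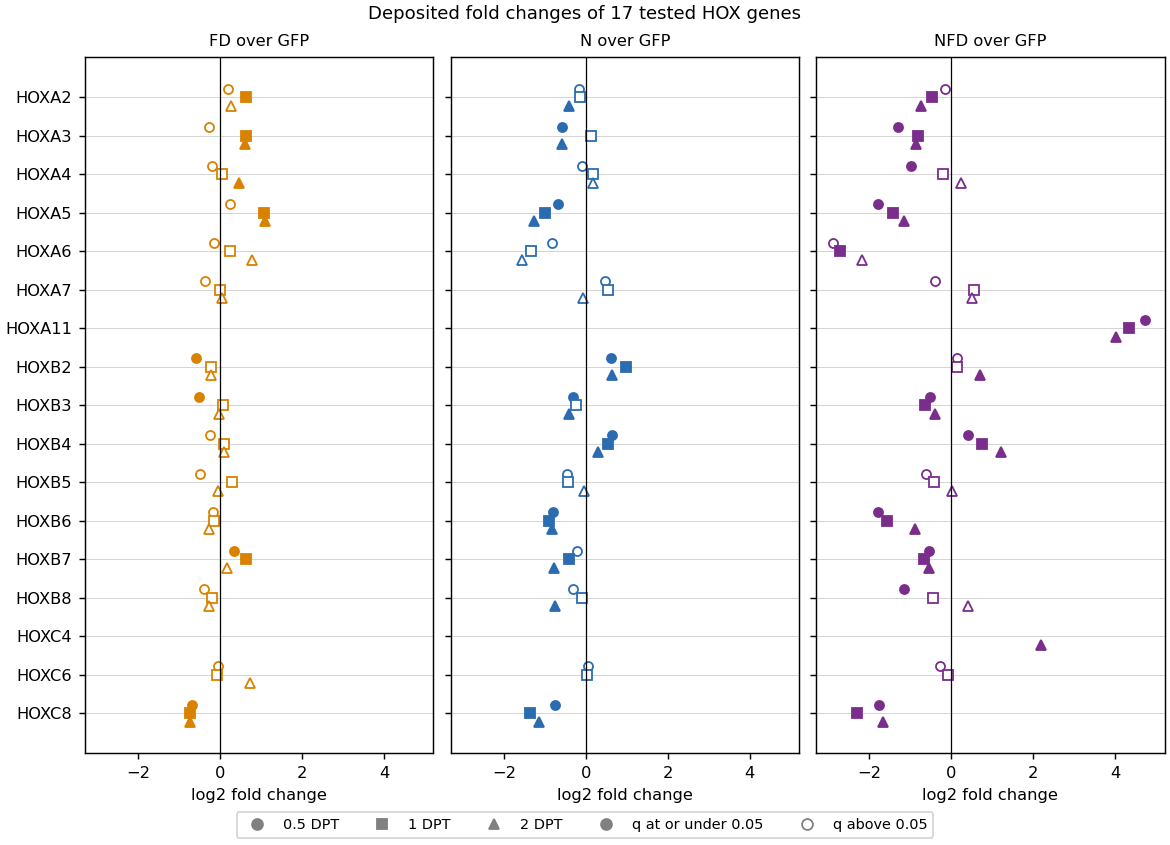
Deposited log2 fold changes over time-matched GFP cells for 17 of the 18 tested HOX genes, in 3 panels for FD, N and NFD cells; marker shapes are times and filled markers have a q-value at or under 0.05. HOXA5 lay at 1.09 in FD cells and -1.16 in NFD cells at 2 DPT, HOXC8 was lower in all 9 comparisons, and untested genes have no marker.

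Paralogs 1 to 3 lie at the 3′ end and pattern the hindbrain and pharyngeal arches in vertebrate embryos. HOXA2, which gives the second pharyngeal arch its identity in mice, was listed at 2.62, 4.84 and 4.33 FPKM in FD cells, 2.05, 2.83 and 2.73 FPKM in N cells, 2.04, 2.26 and 2.16 FPKM in NFD cells and 2.28, 3.13 and 3.62 FPKM in GFP cells. HOXA3, needed in mice for the thymus and parathyroid, was listed at 1.68, 2.93 and 4.05 FPKM in FD cells, 1.38, 2.07 and 1.78 FPKM in N cells, 0.830, 1.07 and 1.47 FPKM in NFD cells and 2.05, 1.89 and 2.69 FPKM in GFP cells. Both were highest in FD cells at 1 and 2 DPT and lowest in NFD cells at the same times. In the authors' deposited tables HOXA3 had log2 fold changes of -1.302, -0.81 and -0.87 in NFD cells, all lower (q = 0.000151 at each time). In FD cells it had -0.29, 0.64 and 0.59 by the authors' deposited tables, of which the first did not pass. HOXA2 was higher in FD cells at 1 DPT (0.63) and lower in NFD cells at 1 and 2 DPT (-0.47 and -0.75) and in N cells at 2 DPT (-0.41) in the authors' deposited tables.

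HOXB2 (GRCh37 chromosome 17, bases 46620019 to 46622393), which acts in the hindbrain segments that give facial motor neurons in mice, was listed at 9.52, 11.3 and 16.4 FPKM in FD cells, 22.2, 25.9 and 29.9 FPKM in N cells, 15.8, 14.5 and 31.1 FPKM in NFD cells and 14.4, 13.2 and 19.3 FPKM in GFP cells. N cells were above GFP cells at all 3 times, and NFD cells came close to N cells at 2 DPT. In the authors' deposited tables it was higher in N cells at each time, with 0.62, 0.98 and 0.63 (q = 0.000151 at each). In NFD cells the log2 fold changes were 0.13, 0.14 and 0.69 in the authors' deposited tables, and the one at 2 DPT passed (q = 0.000151).

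HOXB3, the next gene along the chromosome, was listed at 11.04, 18.4 and 18.4 FPKM in FD cells, 12.7, 14.9 and 14.2 FPKM in N cells, 11.004, 11.3 and 14.3 FPKM in NFD cells and 15.9, 17.6 and 18.9 FPKM in GFP cells. It lies between HOXB2 and HOXB4 in the cluster. While HOXB2 and HOXB4 were higher in NFD cells at 2 DPT, HOXB3 was lower, with -0.53, -0.65 and -0.40 at the 3 times in the authors' deposited tables (q = 0.000151, 0.000151 and 0.000816). HOXB3 was also lower in N cells at 0.5 and 2 DPT and in FD cells at 0.5 DPT by the authors' deposited tables.

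Paralogs 4 and 5 mark the cervical and upper trunk levels. HOXB4 (GRCh37 chromosome 17, bases 46652869 to 46655743), known for expanding blood stem cells when supplied in excess, was listed at 5.16, 8.64 and 10.7 FPKM in FD cells, 9.53, 11.8 and 12.5 FPKM in N cells, 8.12, 13.6 and 23.3 FPKM in NFD cells and 6.13, 8.16 and 10.1 FPKM in GFP cells. It passed in all 6 comparisons of N or NFD cells with GFP cells, each time as higher, and in none of the FD comparisons. The log2 fold changes in the authors' deposited tables were 0.41, 0.74 and 1.20 in NFD cells (q = 0.00338, 0.000151 and 0.000151). In N cells they were 0.64, 0.54 and 0.31 in the authors' deposited tables (q = 0.000151, 0.000151 and 0.0225). HOXB4 had the second highest level of the HOX genes in NFD cells at 2 DPT.

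HOXA4, its paralog in the HOXA cluster, was listed at 1.11, 1.53 and 1.82 FPKM in FD cells, 1.19, 1.69 and 1.49 FPKM in N cells, 0.646, 1.29 and 1.56 FPKM in NFD cells and 1.27, 1.49 and 1.33 FPKM in GFP cells. It was lower in NFD cells at 0.5 DPT (-0.98, q = 0.00107) and higher in FD cells at 2 DPT (0.46, q = 0.0458) in the authors' deposited tables. The other 7 comparisons of HOXA4 did not pass.

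HOXA5 (GRCh37 chromosome 7, bases 27179983 to 27196296, the locus shared with HOXA6 and HOXA7) stood higher in FD cells and lower in N and NFD cells than in GFP cells. It was listed at 25.8, 49.9 and 60.2 FPKM in FD cells, 13.9, 12.02 and 11.8 FPKM in N cells, 6.33, 8.94 and 12.7 FPKM in NFD cells and 22.03, 23.9 and 28.3 FPKM in GFP cells. This order of FD, GFP and the 2 NEUROG2 groups held at every time. The log2 fold changes in FD cells were 0.23, 1.06 and 1.09 in the authors' deposited tables, and those at 1 and 2 DPT passed (q = 0.000151 each). In N cells they were -0.67, -0.99 and -1.26 and in NFD cells -1.80, -1.42 and -1.16 in the authors' deposited tables, and all 6 passed at q = 0.000151. HOXB5, which shares its locus with HOXB6, was listed at 6.26, 11.5 and 6.99 FPKM in FD cells, 6.44, 7.04 and 7.05 FPKM in N cells, 5.74, 7.03 and 7.32 FPKM in NFD cells and 8.86, 9.47 and 7.30 FPKM in GFP cells and did not pass in any comparison.

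Paralogs 6 to 8 mark the thoracic level. HOXB6 (GRCh37 chromosome 17, bases 46667823 to 46683774) was listed at 32.4, 26.5 and 21.9 FPKM in FD cells, 21.0, 16.0 and 14.9 FPKM in N cells, 10.6, 9.99 and 14.3 FPKM in NFD cells and 36.5, 29.7 and 26.4 FPKM in GFP cells. The level in GFP cells was itself lower at each later time, and both groups with NEUROG2 stayed under it. The log2 fold changes were -0.80, -0.89 and -0.83 in N cells and -1.78, -1.57 and -0.88 in NFD cells in the authors' deposited tables, and all 6 passed at q = 0.000151. In FD cells they were -0.17, -0.17 and -0.27 in the authors' deposited tables, and none passed.

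HOXB7 (GRCh37 chromosome 17, bases 46684595 to 46688383) was listed at 15.1, 18.1 and 14.5 FPKM in FD cells, 10.3, 8.78 and 7.54 FPKM in N cells, 8.27, 7.36 and 8.79 FPKM in NFD cells and 12.02, 11.8 and 12.9 FPKM in GFP cells. It was highest in FD cells and lower in NFD cells than in GFP cells at all 3 times. In the authors' deposited tables it was higher in FD cells at 0.5 and 1 DPT (0.33 and 0.62), lower in N cells at 1 and 2 DPT (-0.42 and -0.78) and lower in NFD cells at each time (-0.54, -0.68 and -0.55). HOXB8, which in mice is active in spinal cord and in precursors of some microglia, was listed at 0.7999, 0.794 and 1.00 FPKM in FD cells, 0.856, 0.866 and 0.725 FPKM in N cells, 0.476, 0.679 and 1.61 FPKM in NFD cells and 1.06, 0.921 and 1.23 FPKM in GFP cells. In NFD cells it was below every other group at 0.5 DPT and above every other group at 2 DPT. It was lower in NFD cells at 0.5 DPT (-1.16, q = 0.000291) and lower in N cells at 2 DPT (-0.76, q = 0.00606) in the authors' deposited tables.

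HOXA6 and HOXA7 share the HOXA5 locus, and their fold changes were imprecise. HOXA6 was listed at 2.17, 3.01 and 4.83 FPKM in FD cells, 1.36, 1.00 and 0.960 FPKM in N cells, 0.329, 0.391 and 0.622 FPKM in NFD cells and 2.42, 2.56 and 2.85 FPKM in GFP cells. As for HOXA5, FD cells stood above and N and NFD cells below GFP cells at 1 and 2 DPT. It passed once, as lower in NFD cells at 1 DPT (-2.71, q = 0.04003, authors' deposited table). HOXA7 was listed at 1.01, 1.38 and 1.77 FPKM in FD cells, 1.80, 2.01 and 1.64 FPKM in N cells, 0.991, 2.00 and 2.44 FPKM in NFD cells and 1.31, 1.37 and 1.72 FPKM in GFP cells and did not pass in any comparison.

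HOXC8 (GRCh37 chromosome 12, bases 54402890 to 54406545), which specifies motor neuron pools of the brachial spinal cord in mice, stayed under 1 FPKM in every group and was chosen after its values were seen. It was listed at 0.423, 0.509 and 0.445 FPKM in FD cells, 0.403, 0.332 and 0.338 FPKM in N cells, 0.200, 0.173 and 0.232 FPKM in NFD cells and 0.683, 0.855 and 0.741 FPKM in GFP cells. Every group other than GFP lay below GFP cells at each time, and NFD cells were lowest. It was the one member called in the same direction in all 9 tables, with -0.69, -0.75 and -0.74 in FD cells, -0.76, -1.36 and -1.13 in N cells and -1.77, -2.30 and -1.68 in NFD cells by the authors' deposited tables. With a pseudocount of 0.1 FPKM the NFD values were -1.38, -1.80 and -1.34.

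**Figure D3:**
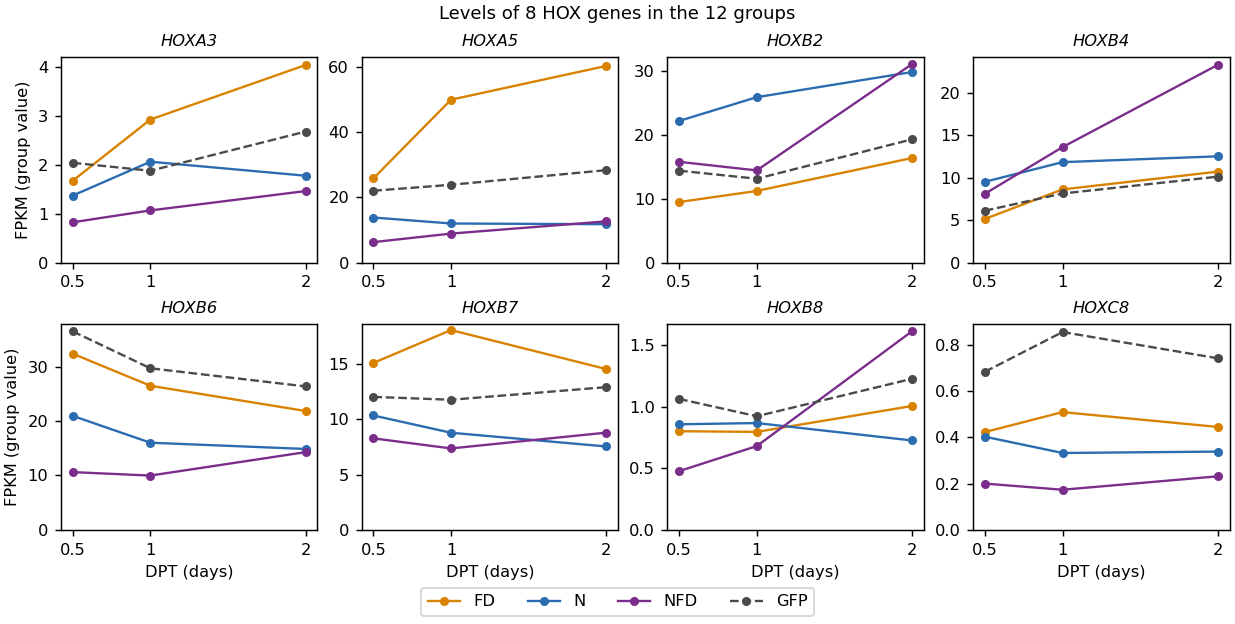
Group FPKM (vertical axes, from 0) of 8 HOX genes against time in DPT (horizontal axes), with solid lines for FD, N and NFD cells and a dashed line for GFP cells; each point is 1 value for a group of 3 libraries, with no error available. HOXA5 reached 60.2 FPKM in FD cells, HOXB4 23.3 FPKM in NFD cells, and HOXC8 in GFP cells lay above the other groups at each time.

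Marker genes also differed between the groups. FD, N and NFD cells all had fewer summed fibroblast marker FPKM than GFP cells, with 6651, 6839 and 1573 FPKM at 2 DPT in FD, N and NFD cells and 11377 FPKM in GFP cells. Of the neuron markers tested at 2 DPT, 3 of 7 were higher and 0 lower in FD cells, 6 of 9 higher and 1 lower in N cells, and 7 of 10 higher and 1 lower in NFD cells, in the authors' deposited tables. Over all tested loci at 2 DPT, 16.9% were higher and 21.6% lower in FD cells, and 27.1% and 30.0% in N cells. In NFD cells these shares were 34.1% and 32.0%. TUBB3, a tubulin of neurons, was the neuron marker that was lower in N and NFD cells, and DCX, a marker of young neurons, stayed at or under 0.0738 FPKM in every group. The 14 neuron markers summed to 207, 78.0, 117 and 172 FPKM in FD, N, NFD and GFP cells at 2 DPT. TUBB3 held 171, 45.9, 70.2 and 159 FPKM of these sums. RBFOX3, NEFM and STMN2 were near the floor in GFP cells at 2 DPT, at 0.00891, 0.0144 and 0.00872 FPKM. Endothelial markers were higher for 5 of 6 tested genes in NFD cells at 2 DPT, summing to 8.48 FPKM in NFD cells and 19.5 FPKM in GFP cells, of which TEK held 19.0 FPKM. The part of these marker changes in the HOX values was not tested.

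The members that were silent or nearly silent in GFP cells were listed at low levels above those of GFP cells in N and NFD cells as a sum. Paralogs 9 to 13 of the 4 clusters summed to 0.485, 0.595 and 0.972 FPKM in FD cells, 1.35, 1.43 and 1.48 FPKM in N cells, 1.26, 2.097 and 3.64 FPKM in NFD cells and 0.467, 0.559 and 0.774 FPKM in GFP cells. NFD cells at 2 DPT had the highest sum, and FD cells stayed close to GFP cells. All 9 HOXD genes together summed to 0, 0.0119 and 0.0311 FPKM in FD cells, 0.172, 0.367 and 0.430 FPKM in N cells, 0.109, 0.334 and 1.07 FPKM in NFD cells and 0, 0 and 0.0150 FPKM in GFP cells. Of the 19 members under 0.1 FPKM in GFP cells at 2 DPT, 16 (84.2%) were listed higher in NFD cells, 15 (78.9%) in N cells and 8 (42.1%) in FD cells. The same share over all loci under 0.1 FPKM in GFP cells was 50.0% in NFD cells, 39.8% in N cells and 33.8% in FD cells. Of those 19 members, 12 (63.2%) reached 0.1 FPKM in NFD cells at 2 DPT, beside 23.3% of all such loci. At that time the share was 26.3% beside 14.6% in N cells and 5.26% beside 8.77% in FD cells. In NFD cells at the earlier times the shares that reached 0.1 FPKM were closer to those of all loci. They were 19.0% beside 14.7% at 0.5 DPT and 25.0% beside 18.8% at 1 DPT. The shares listed higher than in GFP cells stayed apart at those times. They were 71.4% beside 40.9% at 0.5 DPT and 75.0% beside 45.8% at 1 DPT. These values are near the lower limit of the tables, depth is unknown, and the counts carry no test.

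**Figure D4:**
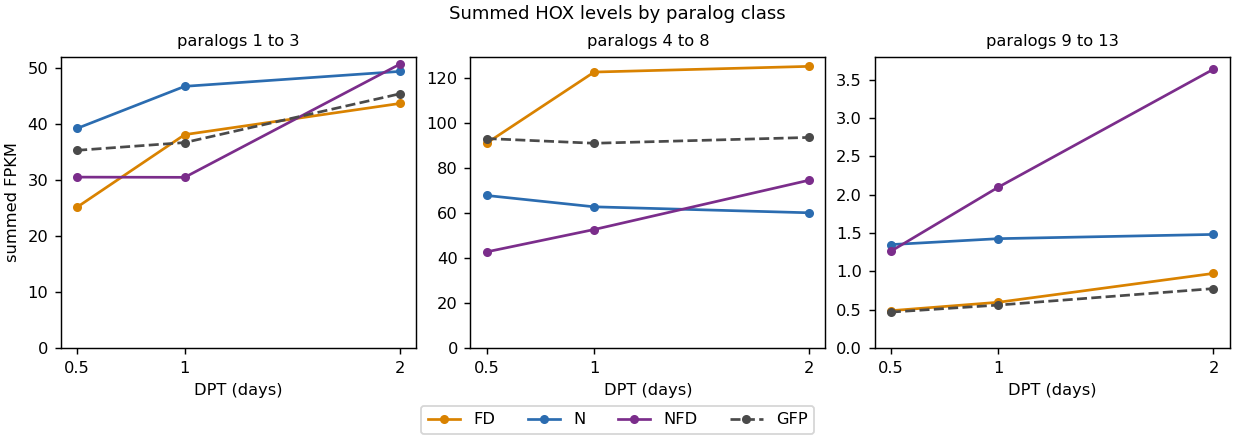
Summed FPKM (vertical axes, from 0, scaled per panel) of HOX genes of paralogs 1 to 3, 4 to 8 and 9 to 13 against time in DPT, with solid lines for FD, N and NFD cells and a dashed line for GFP cells. Paralogs 9 to 13 reached 3.64 FPKM in NFD cells and 0.774 FPKM in GFP cells at 2 DPT, while paralogs 4 to 8 were highest in FD cells at 1 and 2 DPT.

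HOXA11 (GRCh37 chromosome 7, bases 27220776 to 27224835), which patterns the forearm and lower leg and the uterus, had the highest level among paralogs 9 to 13 in NFD cells and was chosen after its values were seen, as were the genes in the rest of this paragraph. It was listed at 0.0377, 0.0482 and 0.0861 FPKM in FD cells, 0.311, 0.366 and 0.346 FPKM in N cells, 0.640, 0.746 and 0.953 FPKM in NFD cells and 0.0243, 0.0373 and 0.0586 FPKM in GFP cells. Both groups with NEUROG2 were above FD and GFP cells at each time, and NFD cells were highest. In the authors' deposited tables it was higher in NFD cells with log2 fold changes of 4.72, 4.32 and 4.02 (q = 0.0172, 0.0125 and 0.000816) and was not tested elsewhere. With a pseudocount of 0.1 FPKM these were 2.57, 2.62 and 2.73. HOXC4, for which the promoter is printed above, was listed at 0.112, 0.185 and 0.140 FPKM in FD cells, 0.274, 0.272 and 0.365 FPKM in N cells, 0.328, 0.344 and 0.605 FPKM in NFD cells and 0.0796, 0.170 and 0.132 FPKM in GFP cells. It was higher in NFD cells at 2 DPT (2.19, q = 0.0266, authors' deposited table), on a locus shared with HOXC5 and HOXC6.

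HOXC13, at the 5′ end of its cluster and a regulator of hair keratins, was listed at 0.0117, 0.0922 and 0.494 FPKM in NFD cells, 0.0358, 0.0333 and 0.0975 FPKM in N cells and 0, 0 and 0.0101 FPKM in GFP cells. HOXD3 was listed at 0.0480, 0.0805 and 0.470 FPKM in NFD cells and 0.0716, 0.162 and 0.140 FPKM in N cells, and at 0 in FD and GFP cells. Neither was tested by the authors. Both genes were chosen after their values were seen, and both were highest in NFD cells at 2 DPT.

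What the molecules added to NEUROG2 was assessed from the difference of the 2 deposited log2 fold changes, NFD against GFP minus N against GFP, by an approximate two-sided z test built on the authors' deposited p-values, with Benjamini-Hochberg adjustment over all loci. Its standard errors (SE) are upper bounds for genes at the smallest p. At the smallest p the SE grows with the fold change, so genes with large changes in the same direction pass less easily. At 0.5 DPT, HOXA5 (-1.80 in NFD and -0.67 in N cells) and HOXB6 (-1.78 and -0.80) were such genes and did not pass. A gene that did not pass is thus not shown to be unchanged by the molecules. Of all loci tested, 12.4%, 18.5% and 18.6% passed in either direction. At 0.5 DPT, 0 of 16 HOX genes passed this test, and 6 had an unadjusted p at or under 0.05. At 1 DPT, of 15 tested, HOXA3 (-0.95 ± 0.26, SE, adjusted p = 0.00305) and HOXB2 (-0.84 ± 0.27, adjusted p = 0.0166) were lower in NFD than in N cells, computed from the p-values the authors deposited. At 2 DPT, of 14 tested, HOXB4 (0.89 ± 0.32, adjusted p = 0.0324) and HOXB8 (1.15 ± 0.34, adjusted p = 0.00649) were higher in NFD than in N cells, again from the p-values the authors deposited. These counts of HOX genes were close to or under the share of all loci. No exact test can replace this one, since the tables hold 1 value per group.

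What NEUROG2 added to the molecules was assessed in the same way, NFD minus FD. Here 37.2%, 45.4% and 45.8% of all loci passed at 0.5, 1 and 2 DPT. Of the HOX genes, 3 were higher and 4 lower of 16 at 0.5 DPT, 2 higher and 7 lower of 15 at 1 DPT, and 3 higher and 6 lower of 13 at 2 DPT. HOXB4 was higher in NFD than in FD cells at every time, and HOXA3, HOXA5 and HOXB7 were lower at every time. HOXA5 differed by -2.03 ± 0.46, -2.48 ± 0.44 and -2.25 ± 0.39 on the log2 scale (adjusted p = 0.000187 at 0.5 DPT, from the p-values the authors deposited). HOXB4 differed by 1.12 ± 0.32 at 2 DPT (adjusted p = 0.00230, from the p-values the authors deposited). HOXB2 was higher in NFD than in FD cells at 0.5 and 2 DPT.

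Whether a fold change against GFP differed between 2 and 0.5 DPT was tested in the same way, and 11.3% of all loci passed in FD cells, 12.8% in N cells and 22.6% in NFD cells. In FD cells 3 of 14 HOX genes passed, HOXA3, HOXA5 and HOXB3, and in NFD cells 3 of 15 passed, HOXA4, HOXB2 and HOXB8. All 6 fold changes were higher at 2 DPT. In N cells 0 of 15 passed, with 2 at an unadjusted p at or under 0.05.

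The partners of HOX proteins, the 9 TALE genes, were all measured. In NFD cells 2, 2 and 2 of 9 were higher and 6, 6 and 5 lower in the authors' deposited tables. Over all tested loci, 32.1%, 32.6% and 34.1% were higher and 31.3%, 33.2% and 32.0% lower in NFD cells. PBX4 rose most and was listed at 0.310, 0.235 and 0.237 FPKM in FD cells, 1.10, 0.988 and 1.55 FPKM in N cells, 2.86, 6.86 and 6.58 FPKM in NFD cells and 0.327, 0.315 and 0.589 FPKM in GFP cells. In the authors' deposited tables its log2 fold changes were 3.13, 4.44 and 3.48 in NFD and 1.75, 1.65 and 1.397 in N cells, all higher, and it was lower in FD cells at 2 DPT (-1.31). PBX3 was higher in all 9 comparisons, with 0.45, 0.51 and 0.43 in FD cells, 1.08, 1.33 and 0.83 in N cells and 1.11, 1.20 and 0.49 in NFD cells in the authors' deposited tables.

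The MEIS genes were lower in NFD cells. MEIS1, the most abundant TALE gene, was listed at 36.4, 61.1 and 62.2 FPKM in FD cells, 34.2, 43.2 and 49.4 FPKM in N cells, 25.2, 25.7 and 24.6 FPKM in NFD cells and 51.6, 61.6 and 54.3 FPKM in GFP cells, and was lower in NFD cells at each time (-1.03, -1.26 and -1.15, authors' deposited tables). MEIS2 was lower in all 9 comparisons, with -0.71, -0.30 and -0.36 in FD cells, -1.495, -1.34 and -1.37 in N cells and -1.73, -1.57 and -1.59 in NFD cells in the authors' deposited tables. MEIS3 was lower in N cells (-0.68, -1.05 and -1.34) and NFD cells (-1.65, -2.36 and -1.54) at each time and did not pass in FD cells, by the authors' deposited tables. PKNOX2 was lower in NFD cells at each time (-0.64, -1.31 and -1.37, authors' deposited tables). It stood at 0.823, 0.904 and 1.58 FPKM in FD cells and 1.75, 2.14 and 2.46 FPKM in N cells. In GFP cells it stood at 0.940, 1.77 and 2.42 FPKM. PBX2 was lower in NFD cells at 0.5 and 1 DPT (-0.62 and -0.51), and PKNOX1 was lower in NFD cells at 0.5 DPT (-0.33) and in N cells at 0.5 and 1 DPT (-0.40 and -0.41), by the authors' deposited tables.

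**Figure D5:**
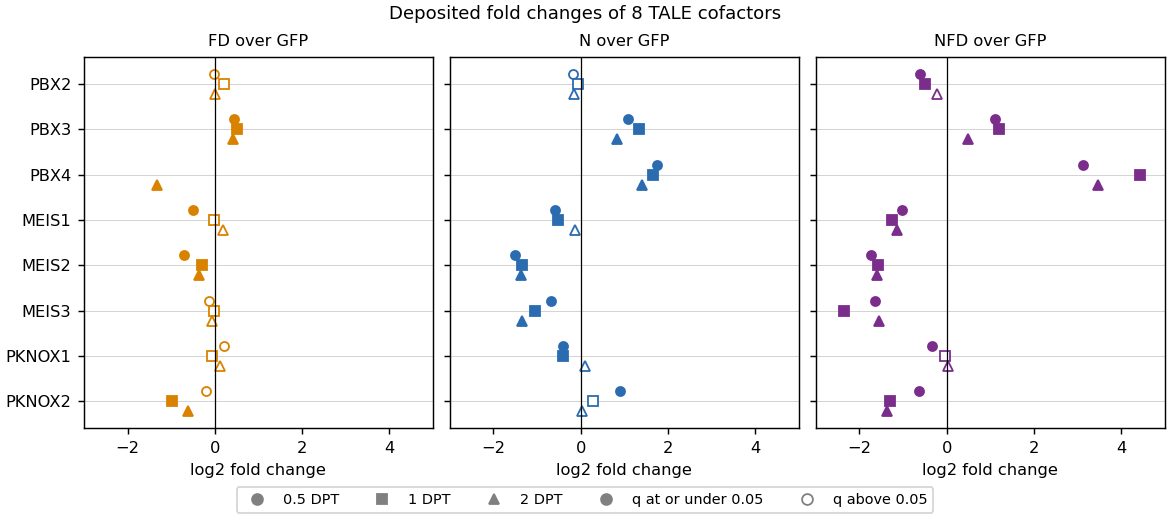
Deposited log2 fold changes over time-matched GFP cells for 8 of the 9 TALE genes, in 3 panels for FD, N and NFD cells; marker shapes are times and filled markers have a q-value at or under 0.05. PBX4 lay at 4.44 in NFD cells at 1 DPT, and MEIS2 and MEIS3 lay below 0 in N and NFD cells at each time.

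Among noncoding RNAs of the clusters, 10 of 28 symbols were found in the tables. HOTAIRM1, transcribed from the 3′ part of the HOXA cluster (GRCh37 chromosome 7, bases 27135713 to 27139877), was listed at 6.16, 7.93 and 7.79 FPKM in FD cells, 7.08, 8.16 and 7.88 FPKM in N cells, 10.9, 11.9 and 23.3 FPKM in NFD cells and 4.804, 5.05 and 5.98 FPKM in GFP cells. All groups other than GFP were above GFP cells at each time, and NFD cells were highest. Its log2 fold changes in the authors' deposited tables were 1.18, 1.24 and 1.96 in NFD cells, 0.56, 0.69 and 0.40 in N cells and 0.36, 0.65 and 0.38 in FD cells, and 8 of the 9 passed as higher, the exception being FD cells at 0.5 DPT. HOXA11-AS1, beside HOXA11 and chosen after its values were seen, was listed at 0.186, 0.657 and 1.08 FPKM in NFD cells and 0, 0.0221 and 0.0289 FPKM in GFP cells, without passing. MIR10A, the locus of a microRNA hairpin beside HOXB4, also chosen after its values were seen, was listed at 31.1, 0 and 0 FPKM in NFD cells and 38.4, 43.5 and 49.5 FPKM in GFP cells, and was called lower in NFD cells at 1 and 2 DPT (q = 0.0424 at each, authors' deposited tables). It was listed at 16.1, 25.5 and 58.7 FPKM in FD cells and 44.1, 6.87 and 19.1 FPKM in N cells, and was not called lower there. The locus is very short (GRCh37 chromosome 17, bases 46657200 to 46657309), so its FPKM is unsteady. Reads of 50 bases from total RNA do not measure the mature microRNA. Its RefSeq sequence, with the seed (bases 2 to 8) in capitals, is shown because this locus lies beside HOXB4. In NFD cells at 1 and 2 DPT it was called in the other direction.
hsa-miR-10a-5p: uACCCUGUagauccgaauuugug

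Regulators of the clusters were described from 3 lists. Over all tested loci, 31.3% to 34.1% were called in each direction in NFD cells. The range was 24.3% to 30.0% in N cells and 16.0% to 22.3% in FD cells. Of the retinoic acid and CDX genes, retinoids being inducers of 3′ HOX genes, 3, 3 and 4 of 9, 9 and 11 tested were higher and 4, 5 and 6 lower in NFD cells in the authors' deposited tables. In N cells 1, 2 and 2 of 8, 9 and 9 were higher and 4, 5 and 6 lower, and in FD cells 0, 1 and 1 of 8 were higher and 2, 4 and 3 lower, by the authors' deposited tables. ALDH1A3, which makes retinoic acid, was higher in NFD cells (3.81, 3.44 and 1.81) and N cells (2.08, 2.25 and 1.05) by the authors' deposited tables. RARG, a retinoic acid receptor, was lower in NFD cells (-2.25, -2.80 and -3.02) and N cells (-1.18, -1.57 and -1.71) by the authors' deposited tables. DHRS3, which turns retinaldehyde back to retinol, was lower in NFD cells (-3.43, -3.06 and -2.32) and FD cells (-1.96, -2.76 and -2.29) by the authors' deposited tables.

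Of the 24 Polycomb genes, 5, 6 and 6 were higher and 13, 15 and 14 lower in NFD cells, and 6, 7 and 5 higher and 11, 10 and 12 lower in N cells, by the authors' deposited tables. In FD cells 4, 3 and 3 were higher and 5, 5 and 5 lower by the authors' deposited tables. Medians in NFD cells were -0.56, -0.46 and -0.37, beside 0.02, 0.00 and 0.04 over all tested loci. The shares of all tested loci called in each direction were 31.3% to 34.1% in NFD cells. They were 24.3% to 30.0% in N cells and 16.0% to 22.3% in FD cells. JARID2, a partner of the complex that methylates lysine 27, was higher in NFD cells (1.11, 1.59 and 1.89) and N cells (1.23, 1.32 and 1.28) by the authors' deposited tables. PHC2, a subunit of the other main complex, was higher in NFD cells (1.22, 1.26 and 1.24) and lower in FD cells (-0.63, -0.56 and -0.56), and CBX7, which reads the methyl mark, was lower in NFD cells (-1.55, -1.48 and -1.28), in the authors' deposited tables. PHC2 stood at 58.7, 58.8 and 58.6 FPKM in N cells and 32.5, 37.2 and 50.5 FPKM in GFP cells. CBX7 stood at 0.541, 0.886 and 0.795 FPKM in FD cells and 0.749, 0.732 and 0.722 FPKM in N cells. In GFP cells it stood at 1.25, 1.57 and 1.67 FPKM. Of 14 trithorax and demethylase genes, 2, 4 and 5 were higher and 8, 5 and 4 lower in NFD cells in the authors' deposited tables. KDM6B, which removes the lysine 27 mark, was higher in NFD cells (0.38, 0.80 and 1.10) and FD cells (0.60, 0.58 and 0.50) in the authors' deposited tables.

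Other transcription factors that mark where fibroblasts come from changed in both directions. Beside them, 31.3% to 34.1% of all tested loci were called in each direction in NFD cells. That share was 24.3% to 30.0% in N cells and 16.0% to 22.3% in FD cells. Of the 42 listed, 21, 22 and 23 were tested in NFD cells, and 5, 5 and 6 were higher and 12, 12 and 14 lower in the authors' deposited tables. In N cells 8, 10 and 8 of 22, 25 and 24 were higher and 8, 10 and 11 lower, and in FD cells 3, 5 and 3 of 20, 20 and 21 were higher and 7, 8 and 9 lower, by the authors' deposited tables. SHOX2, a limb and heart homeobox gene, was higher in NFD cells (2.12, 3.86 and 5.11) and N cells (1.31, 2.89 and 3.36) by the authors' deposited tables. PITX1, a hindlimb factor, was lower in NFD cells (-1.42, -1.92 and -2.61) in the authors' deposited tables. At 2 DPT its level was 25.1 FPKM in FD cells and 19.9 in N cells, also below the 80.0 FPKM of GFP cells. FOXL1, a factor of gut and lung mesenchyme, was lower in NFD cells (-2.89, -4.02 and -3.93) in the authors' deposited tables. Its level at 2 DPT was 9.94 FPKM in FD cells and 4.33 in N cells, also below the 27.4 FPKM of GFP cells.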

How the data were processed

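Per the labels' protocols, RNA was isolated with TRIzol, libraries were prepared with a stranded kit for total RNA, and single reads of 50 bases came from an Illumina HiSeq instrument; the molecule label reads genomic DNA. The submitters' processing notes name GRCh37 (hg19), TopHat 1.4.1, Cufflinks 2.1.0 and Cuffdiff 2.1.0. Whether counting used strand is not given in the sources used here. Per the file headers, each of the 9 tables deposited by the authors holds, for 23146 loci, the FPKM of a condition and of GFP (1 value per group of 3 libraries), the log2 fold change of the condition over GFP, a p-value, a q-value and a test status. Depth per library is unknown, and GFP values of the members were identical between tables of the same time.

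Members were matched by symbol, and 26 locus names turned into numbers were counted but not named. Loci with a status other than OK were left out of counts. Starts in the tables count from 0 and are printed from 1. For a difference of 2 deposited log2 fold changes, each standard error was the fold change over the normal quantile of its p-value (an upper bound at the smallest p-value, 5e-05), loci with p above 0.9 or an infinite fold were left out, and a two-sided z test was adjusted by Benjamini-Hochberg over all loci. Both tables of a pair share GFP libraries, which makes that test conservative; between times they share none. The procedure was tested only on simulated fold changes with normal errors, as the test assumes, and a shared control. The simulation held no groups of 3 libraries and no pairs without a shared control, as between times. Python 3.11.15, numpy 2.4.6, pandas 2.3.3, scipy 1.17.1 and matplotlib 3.10.9 were used. Every member with at least 1 FPKM in any group is named with its values, and up to 6 members of each other list, those called in 1 direction at all 3 times in some condition with the largest changes; the TALE genes are all named. The members and lists were chosen with earlier results of these data known. Alternatives were a q-value of 0.01, adjustment within a table, a minimum of 1 FPKM or of 2-fold, centring, pseudocounts of 1 and 0.1 FPKM, rescaling of sums, and a limit of 0.5 on p in the difference test. Some genes are counted in the totals and sums but are not reported here by name.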

Additional observations from a re-analysis of the deposited data

Results flagged for a closer look

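For 6 HOX genes the log2 fold change against GFP differed between 2 and 0.5 DPT by the approximate z test over all loci, whose p-values were computed from those the authors deposited, which set them apart for a closer look. In NFD cells the difference was 1.55 ± 0.37 (SE) for HOXB8 (adjusted p = 0.000492), whose fold change was 0.40 at 2 DPT and -1.16 at 0.5 DPT in the authors' deposited tables. It was 1.21 ± 0.35 for HOXA4 (adjusted p = 0.00440) and 0.55 ± 0.21 for HOXB2 (adjusted p = 0.0395), from the p-values the authors deposited. In FD cells it was 0.88 ± 0.21 for HOXA3 (adjusted p = 0.00173), 0.86 ± 0.30 for HOXA5 (adjusted p = 0.0380) and 0.49 ± 0.17 for HOXB3 (adjusted p = 0.0409), again from the p-values the authors deposited. Libraries could not be examined singly, so which of them carry these differences was not tested.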

How the results depend on the processing

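With a minimum change of 2-fold, the HOX genes called were 1, 1 and 1 in FD cells (5, 5 and 5 without it), 0, 1 and 2 in N cells (7, 6 and 10) and 6, 5 and 5 in NFD cells (10, 11 and 11). Most calls in N and FD cells, and in NFD cells at 1 and 2 DPT, were thus of less than 2-fold. In FD cells a q-value of 0.01 left 3 calls at 0.5 DPT, and a minimum of 1 FPKM left 3 calls at 0.5 DPT and 3 at 2 DPT. All other counts of HOX genes stayed within 1.5 times under the q-value of 0.01, adjustment within the table, the minimum of 1 FPKM, centring, and the limit of 0.5 in the difference tests, and cluster sums moved by 10% or less when rescaled or, for HOXA and HOXB, limited to loci of at least 1 FPKM. No called HOX gene changed direction under centring or pseudocounts. Pseudocounts shrank folds of low genes: with 0.1 FPKM 3 fold changes, all of HOXA11, moved by more than their standard error, and with 1 FPKM 30 did. No paired analysis was possible because the tables hold 1 value per group, and for the same reason no library could be left out. Levels under about 0.1 FPKM have unknown counting error, since depth is unknown.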

Other observations

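The 10 homeobox genes that lie beside the clusters or are related to them (EVX1, EVX2, GSX1, GSX2, PDX1, MNX1, MEOX1, MEOX2, EN1 and EN2) were near 0 in every group and were never tested by the authors. They summed to 0.219, 0.309 and 0.599 FPKM in NFD cells, 0.101, 0.158 and 0.200 FPKM in N cells, 0.0252, 0.107 and 0.0678 FPKM in FD cells and 0.00603, 0.0555 and 0.152 FPKM in GFP cells. HOTAIR, a noncoding RNA of the HOXC cluster known to repress HOXD in human fibroblasts of distal sites, was listed at 0.0157, 0.0670 and 0.197 FPKM in NFD cells and 0.00710, 0 and 0 FPKM in GFP cells. MIR196A1, MIR196A2, MIR196B and MIR10B were listed at 0 in all groups.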
